A study of Mus musculus with 8 samples.

Results

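The genes described here are 10 genes of the TREM2 pathway that define disease-associated microglia: the receptor Trem2, its adaptor Tyrobp, the surface proteins Clec7a, Itgax, Axl and Gpnmb, the lipid handling proteins Apoe and Lpl, and the secreted or lysosomal proteins Cst7 and Spp1. The list was taken by gene name, with no use of measured values in its rule, but with earlier results of these data known. Each gene was looked up by its symbol in the deposited tables, where 9 of the 10 had a row among 17700 genes. The expression of Clec7a, the beta-glucan receptor Dectin-1, was not analysed here. In a study that relates gene-body hydroxymethylation to transcription in aging, RNA of frozen cerebellum was sequenced from 8 C57BL/6JN mice, with no treatment other than age named in the sample labels. The old group held 4 mice, namely a male of 93 weeks (old 1), a female of 83 weeks (old 2), a male of 83 weeks (old 3) and a female of 102 weeks (old 4). The young group held males of 19 weeks (young 1 and young 2), a female of 19 weeks (young 3) and a female of 22 weeks (young 4). The series' design text calls the samples biological replicates, but names liver and other ages, so tissue, age and sex follow the sample labels.

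TREM2 is a lipid-sensing receptor of microglia, the resident macrophages of the brain. It has no signalling motif of its own and passes its signal through the adaptor TYROBP, also called DAP12, to the kinase SYK. In mouse models of amyloid disease, microglia near plaques lower their homeostatic genes and raise a set of lipid, lysosomal and phagocytic genes. In that state, Apoe and Tyrobp belong to an early step that does not need TREM2, while Cst7, Lpl, Itgax, Axl, Spp1 and Clec7a belong to a later step that does. Several of these genes are also used by other cells: astroglia and hepatocytes make Apoe, melanocytes make Gpnmb, and dendritic cells carry Itgax.

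Libraries held 6079485 to 7236720 counts each. Levels are given in CPM, the count scaled by library total and TMM, and the floor of 3 counts lay between 0.421 and 0.511 CPM. This floor covers counting error only. Markers of the cerebellum's own cells were plentiful in every library, with summed levels of 4020 to 5414 CPM in old and 4534 to 5804 CPM in young mice for 9 Purkinje cell markers. The 12 homeostatic microglia markers, such as Cx3cr1, Csf1r and P2ry12, summed to 180 to 309 CPM in old and 139 to 194 CPM in young mice. Transcripts of 7 liver genes were most frequent in old 2 (84.2 CPM in sum), old 3 (23.6 CPM) and young 4 (21.2 CPM), and the remaining 5 libraries had sums of 0.682 to 9.63 CPM. The 10 choroid plexus markers summed to 52.8 to 989 CPM in old and 40.0 to 474 CPM in young mice, lowest in young 4, old 3 and young 3. These differences between libraries stand beside the results they touch.

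Of the 9 genes with a row, 1 passed the test for age across all genes, Itgax, which was higher in old cerebellum. The test was edgeR's quasi-likelihood test with sex in the model, with Benjamini-Hochberg adjustment over 14191 genes and a threshold of 0.05. Over all genes tested, 0.12% were called, 0.0987% as higher in old mice and 0.0211% as lower. Without adjustment 5 of the 9 had p under 0.05 and were higher in old mice, against 5.25% of all genes (11.0% in either direction). Trem2 just missed the threshold, at an adjusted p = 0.0597 by the same test, and its 4 old values lay above its 4 young values. The other 7 genes were not called, and their old and young values overlapped. All 9 passed the filter on low counts, Itgax through its old libraries alone, so its pass already required a difference. Tyrobp reached the filter's level in young 4 but in no other young library, so its pass also needed old libraries. With no filter its unadjusted p was 0.00104 by edgeR. With no filter, Itgax was called as well, at a log2 fold change of 4.04 and an adjusted p = 0.00646 by edgeR. In bulk tissue, more cells of a type and more RNA per cell cannot be told apart.

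**Figure D1:**
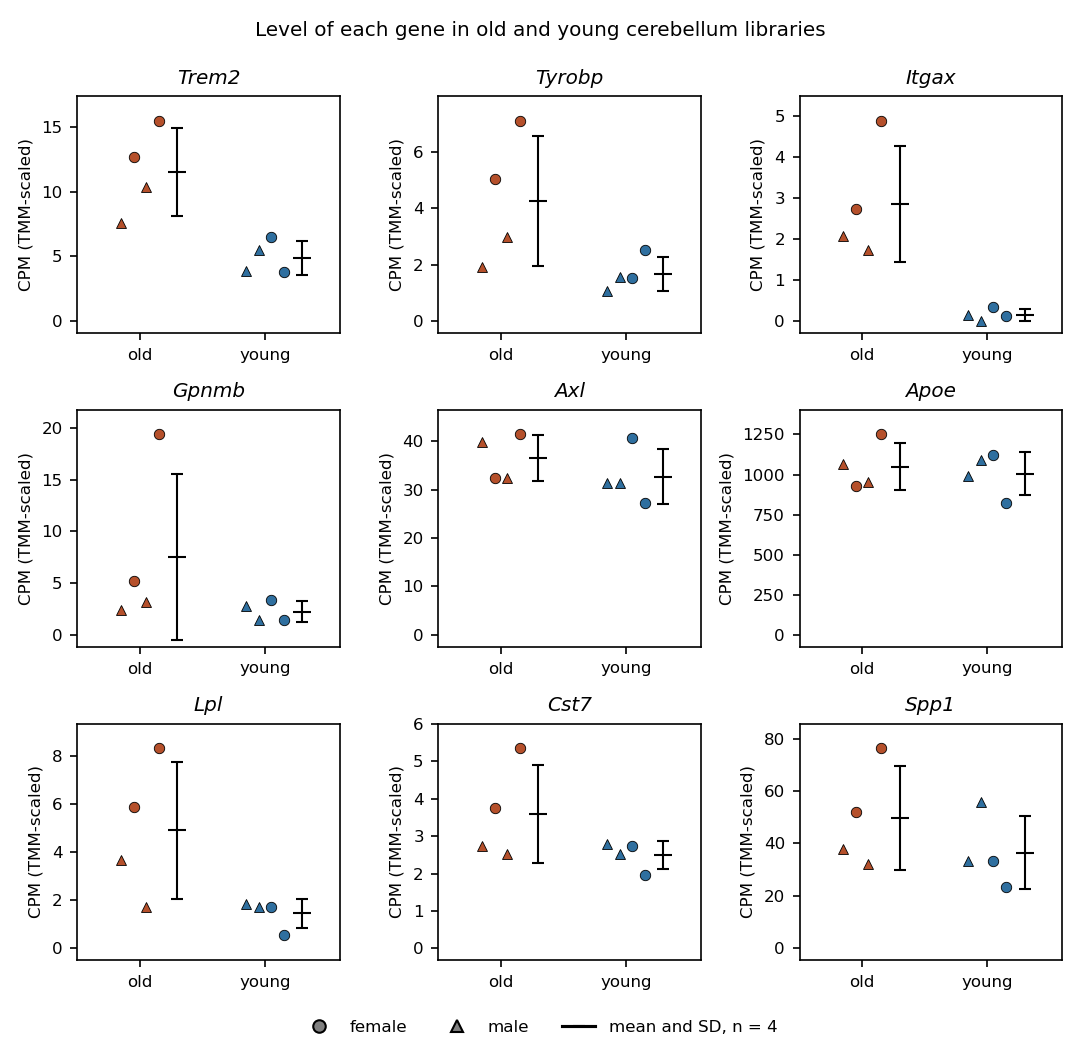
Level of each of the 9 genes in CPM scaled by TMM (vertical axes, each starting near 0), with old libraries on the left and young libraries on the right. Circles are females, triangles are males, and the bar beside each group is its mean and SD (n = 4). Old and young values are apart for Trem2 and Itgax and overlap for the other 7 genes.

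The stretch before the start site is shown for 4 genes, namely Trem2 and Itgax, whose old and young values were apart, and Cst7 and Gpnmb, the other 2 genes with a match to the same motif. Each runs 5′ to 3′ on the plus strand over 250 bases before the start site and the first 15 bases after it, from RefSeq on GRCm38.p6. Capitals mark matches to TGANTCA, or to GAGGAA and its reverse complement TTCCTC, a core of the PU.1 type. TGANTCA is looser than an AP-1 site, because any base may stand in its middle. That base was A in Trem2, G in Itgax, T in Cst7 and C in Gpnmb. Trem2 lies at chr17:48346151-48346415, Itgax at chr7:128129300-128129564, Cst7 at chr2:150570165-150570429 and Gpnmb at chr6:49036268-49036532.
Trem2: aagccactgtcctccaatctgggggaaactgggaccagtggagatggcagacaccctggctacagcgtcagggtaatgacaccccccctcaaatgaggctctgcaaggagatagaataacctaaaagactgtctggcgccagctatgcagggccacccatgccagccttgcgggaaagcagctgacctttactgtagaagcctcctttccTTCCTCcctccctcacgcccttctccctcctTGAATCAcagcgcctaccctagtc
Itgax: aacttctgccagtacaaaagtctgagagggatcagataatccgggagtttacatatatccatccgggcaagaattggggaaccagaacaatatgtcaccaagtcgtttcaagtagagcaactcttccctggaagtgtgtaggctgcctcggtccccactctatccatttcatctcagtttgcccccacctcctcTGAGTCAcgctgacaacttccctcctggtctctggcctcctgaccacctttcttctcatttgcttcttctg
Cst7: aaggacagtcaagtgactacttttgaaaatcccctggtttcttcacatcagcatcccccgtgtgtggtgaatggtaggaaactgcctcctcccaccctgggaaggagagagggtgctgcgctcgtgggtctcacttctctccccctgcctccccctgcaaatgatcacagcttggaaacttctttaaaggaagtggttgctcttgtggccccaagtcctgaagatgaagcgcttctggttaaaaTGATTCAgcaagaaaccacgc
Gpnmb: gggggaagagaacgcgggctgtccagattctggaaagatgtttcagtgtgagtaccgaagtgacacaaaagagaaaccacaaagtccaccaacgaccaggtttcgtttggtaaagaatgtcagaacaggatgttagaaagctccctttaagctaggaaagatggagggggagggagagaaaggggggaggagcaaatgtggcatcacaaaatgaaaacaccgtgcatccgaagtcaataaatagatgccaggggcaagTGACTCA
Sequences of 8 of the 10 genes were found. In their windows of 300 bases, searched on both strands, TGANTCA was found for 4 genes, the 4 shown, and in 7.81% of all 32851 promoter windows. GAGGAA was found for 5 genes, Trem2, Clec7a, Spp1, Axl and Apoe, and in 28.3% of all windows, while CACGTG, the E-box bound by MITF and TFE factors, was found for none of the 8 and in 7.15% of all windows. The match of Cst7 covers the start site and that of Gpnmb lies just after it. Genes were counted if any of their windows matched, and Apoe, Clec7a and Spp1 had several, while the shares are per window. The counts and the shares are therefore not in the same unit. These are matches of letters and no binding was measured.

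The receptor and its adaptor had similar differences in size. Trem2 (GRCm38, chromosome 17, 48346401 to 48354147, plus strand) had 7.54, 12.7, 10.4 and 15.5 CPM in old 1 to old 4, and 3.88, 5.49, 6.48 and 3.79 CPM in young 1 to young 4. The lowest old value, that of old 1, was above the highest young value, that of young 3. The means were 11.5 ± 3.37 CPM in old and 4.91 ± 1.31 CPM in young mice (SD, n = 4 each), a log2 fold change of 1.23 ± 0.23 (SE) with a 95% interval of 0.74 to 1.73. An exact two-sided permutation test of log2 CPM gave p = 0.0286, the smallest that 4 against 4 can give. Trem2 passed with the DESeq2 Wald test (adjusted p = 0.00496), with age entered in weeks (0.0336 by edgeR) and when the score of granule neuron markers was added to the edgeR model (0.0253). Over all 20 alternatives that tested it, its adjusted p ran between 0.00496 and 0.368. All genes called higher in old mice were 0.641% by DESeq2, 0.655% with age in weeks and 0.55% with the granule neuron score.

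Tyrobp (chromosome 7, 30413760 to 30417585, plus strand), whose product carries the signalling motif that TREM2 lacks, had 1.93, 5.04, 2.99 and 7.10 CPM in old 1 to old 4. In young 1 to young 4 it had 1.09, 1.57, 1.53 and 2.53 CPM. Old 1 lay below young 4, and the other 3 old libraries lay above every young one. The log2 fold change was 1.30 ± 0.31 (SE), with an adjusted p = 0.144 by edgeR and p = 0.0571 by the exact two-sided permutation test. The values rest on few reads, 12 to 45 counts in old and 7 to 18 counts in young libraries. Other genes of the receptor's family and adaptor were near the floor: Hcst, the alternative adaptor DAP10, had 4 counts in old 2 and 1 count or none in each other library, and Treml2 had 3 to 6 counts in old and 1 to 3 counts in young libraries.

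Among the other surface proteins, Itgax showed the clearest difference and Axl little. Itgax (chromosome 7, 128129547 to 128150657, plus strand), the integrin alpha chain CD11c, had 13, 19, 11 and 31 counts in old 1 to old 4. It had 1, 0, 2 and 1 counts in young 1 to young 4, each under the floor of 3. Scaled, this was 2.86 ± 1.42 CPM in old and 0.159 ± 0.140 CPM in young mice (SD, n = 4 each). The fitted log2 fold change was 4.04 ± 0.53 (SE) with an adjusted p = 0.00678, and Itgax had the smallest p of all 14191 genes tested. The size is poorly fixed by 4 young counts: summed counts at equal depth stood at a ratio of 18.5, and counting error alone puts it between 6.91 and 69.5 (exact, 95%). Its call was lost without young 1 (adjusted p = 0.0900), young 3 (0.0909) or young 4 (0.0586), with log2 fold changes of 4.20, 4.44 and 3.79. It was also lost with limma-voom (0.0521), at a log2 fold change of 3.69, and once choroid plexus markers entered the model as a score (0.0841), at 4.25 ± 0.68 (SE). Over the 20 alternatives that tested it, its adjusted p ran between 0.00110 and 0.0909.

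Markers of other leukocytes that carry CD11c were measured beside it. The dendritic cell genes Xcr1, Cd209a and Ccr7 had at most 3 counts in every library, and Clec9a had 3 to 7 counts in old and 2 to 6 counts in young libraries. The 7 dendritic cell markers, led by the broadly expressed Zbtb46, summed to 147 to 191 CPM in old and 135 to 201 CPM in young mice. The 7 monocyte and neutrophil markers, among them S100a8 and S100a9, reached 18.3 CPM in old 1 and 21.1 CPM in old 4, against 3.60 CPM in old 2 and 2.2 CPM in old 3, and lay between 0.702 and 2.73 CPM in young mice. Without old 1 or without old 4 the log2 fold change of Itgax was 3.99 or 3.76, with an adjusted p = 0.0461 or 0.0188 by edgeR. The 11 T, B and NK cell markers summed to 3.69 to 5.61 CPM in old and 2.04 to 4.34 CPM in young mice. The part of infiltrating leukocytes in the level of Itgax was not tested.

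Gpnmb (chromosome 6, 49036546 to 49070929, plus strand), a transmembrane glycoprotein of phagocytes and melanocytes, was high in a single library. It had 2.41, 5.18, 3.14 and 19.4 CPM in old 1 to old 4, and 2.79, 1.41, 3.41 and 1.4 CPM in young 1 to young 4. Old 4 stood far above the others, and old 1 and old 3 lay within the young range. The log2 fold change was 1.69 ± 0.63 (SE, adjusted p = 0.374 by edgeR) and 0.78 without old 4. The 5 melanocyte markers, including Pmel and Dct, summed to 1.89 CPM in old 4, the lowest of the old libraries, whose highest sum was 5.04 CPM, and to 1.25 to 3.72 CPM in young mice. The 7 border macrophage markers summed to 36.9 CPM in old 4, to 16.4 to 20.7 CPM in the other old libraries and to 13.9 to 22.8 CPM in young mice. The part of border macrophages in the level of Gpnmb was not tested. Axl (chromosome 7, 25757273 to 25788705, minus strand), a receptor tyrosine kinase that binds GAS6 on dying cells, had 36.6 ± 4.82 CPM in old and 32.7 ± 5.68 CPM in young mice (SD, n = 4 each). The groups overlapped, and the log2 fold change of 0.17 had a 95% interval of -0.13 to 0.47.

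Of the lipid handling pair, Apoe was the most abundant of the 9 genes and showed no called difference, while Lpl was scarce and higher in most old libraries. Apoe (chromosome 7, 19696109 to 19699188, minus strand), the main lipid carrier of the brain, had 1066, 930.3, 950.5 and 1252 CPM in old 1 to old 4. It had 991, 1089, 1121 and 823 CPM in young 1 to young 4. The groups overlapped, and the log2 fold change of 0.06 had a 95% interval of -0.21 to 0.33. Its sign was negative without old 4 (-0.05) and without young 4 (-0.04). The part of liver transcripts, whose sums are given above, in the level of Apoe was not tested. The 12 astroglia markers summed to 5960 to 7453 CPM in old and 6380 to 8643 CPM in young mice. Of these 12, 10 had negative log2 fold changes and 1 was called, Fabp7, which encodes a carrier of fatty acids and fell by 0.82 ± 0.12 (SE) on the log2 scale in old mice.

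Lpl (chromosome 8, 68880491 to 68907448, plus strand), the lipase that releases fatty acids from lipoproteins, had 3.69, 5.90, 1.73 and 8.36 CPM in old 1 to old 4. In young 1 to young 4 it had 1.86, 1.72, 1.70 and 0.561 CPM. Old 3 lay inside the young range, and the other 3 old libraries lay above it. The log2 fold change was 1.74 ± 0.44 (SE) with an adjusted p = 0.191 by edgeR and an exact two-sided permutation p = 0.0571. Lpl passed (adjusted p = 0.0384, log2 fold change 1.6) without old 2, old 3 and young 4, the libraries richest in liver transcripts, a fit in which 1.09% of all genes were called higher. Over its 20 alternatives the adjusted p ran between 0.0384 and 0.759. When the model held that choroid plexus score its log2 fold change was 1.15, not called, and the part of choroid plexus in the level of Lpl was not tested further.

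The secreted and lysosomal products differed least after Axl and Apoe. Cst7 (chromosome 2, 150570415 to 150578944, plus strand), the lysosomal protease inhibitor cystatin F, had 2.73, 3.74, 2.52 and 5.37 CPM in old 1 to old 4 and 2.79, 2.51, 2.73 and 1.96 CPM in young 1 to young 4. The males overlapped across ages, and old 2 and old 4 stood above every young library. Its log2 fold change was 0.52 with a 95% interval of -0.12 to 1.16. Spp1 (chromosome 5, 104435118 to 104441050, plus strand), the secreted phosphoprotein osteopontin, had 37.9, 52.0, 32.2 and 76.5 CPM in old 1 to old 4 and 33.3, 56.0, 33.2 and 23.4 CPM in young 1 to young 4. Young 2 stood above 3 of the 4 old libraries, and the log2 fold change of 0.43 had a 95% interval of -0.45 to 1.30. Markers of brainstem neurons, which also make osteopontin, summed to 89.5 to 216 CPM in old mice and 101 to 251 CPM in young mice, and young 2 had the highest sum. Without young 2 the log2 fold change of Spp1 was 0.76, not called, and the part of such neurons was not tested. Spp1 shares exon sequence on its own strand with the unclassified transcript Gm42793, and how the counting split their reads is not given in the sources used here.

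Per kilobase of annotated exon the genes spanned a wide range of levels. Apoe had 491 ± 69.1 CPM per kb in old and 471 ± 62.6 CPM per kb in young mice (SD, n = 4 each), followed by Spp1 at 30.1 ± 12 in old and 22.1 ± 8.37 in young. Axl had 7.27 ± 0.957 CPM per kb in old and 6.5 ± 1.13 CPM per kb in young mice. Tyrobp, at 6.39 ± 3.43 in old and 2.52 ± 0.909 in young, did not differ beyond its spread from Axl in old mice, nor from Cst7 in young mice. Cst7 had 3.64 ± 1.32 CPM per kb in old and 2.53 ± 0.381 CPM per kb in young mice, and Trem2 2.33 ± 0.681 and 0.992 ± 0.264 in the same order. The lowest levels per kb were those of Gpnmb, at 1.16 ± 1.23 in old and 0.346 ± 0.155 in young, of Itgax, at 0.596 ± 0.295 and 0.0331 ± 0.0291, and of Lpl, at 0.470 ± 0.273 and 0.140 ± 0.0577, with these 3 within their spread of each other in old mice. In young mice Lpl stood above Itgax. Exon lengths join all annotated transcripts of a gene, so levels per kb of genes with long alternative exons are understated.

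Taken as a list, all 9 genes had positive log2 fold changes, 5 of them of at least 1, with a median of 1.23. Over all genes tested, 48.6% were positive, 1.76% reached 1 or more, and the median was -0.01. Lists of other cells were positive too: all 10 choroid plexus markers (median 1.19), all 4 tested monocyte and neutrophil markers (median 2.90) and all 5 tested liver genes (median 1.95), with none called. Their part in the members' values was not tested. Every old library was above every young library for 2 of the 9 genes and for 3.15% of all genes tested, and below it for 0 of the 9 and for 3.42%. Itgax is among the 2 and among the 5, and it passed the filter through its old libraries alone, so its place there was partly fixed in advance. Tyrobp, also among the 5, needed old libraries for its pass too. The list was chosen with earlier results of these data known, so its shares are not an unbiased contrast with all genes. The sign of Apoe depended on the libraries included, as given above.

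**Figure D2:**
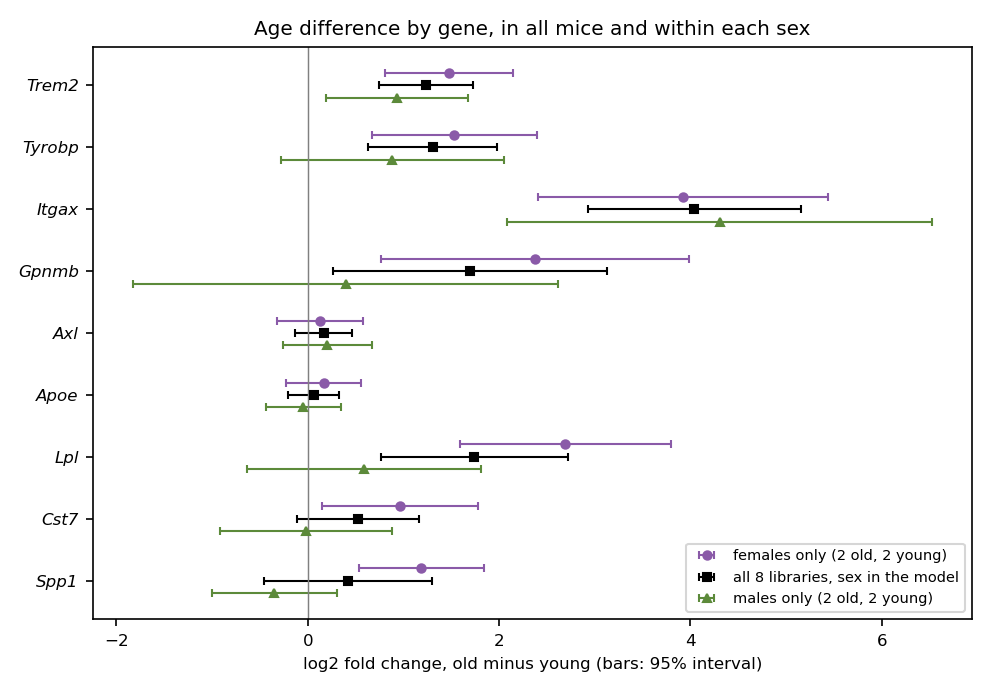
Log2 fold change, old minus young (horizontal axis), of each of the 9 genes with its 95% interval, for females alone, for all 8 libraries with sex in the model, and for males alone. Intervals of all 8 libraries lie above 0 for Trem2, Tyrobp, Itgax, Gpnmb and Lpl, and the interval of Itgax begins at 2.92.

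Old 4 and young 4 stood at the ends of the order for most of the 9 genes, while the lowest old and the highest young library changed between genes. Old 4, the oldest mouse, was the highest of the 8 libraries for all 9 genes, as it was for 11.7% of all genes tested. Young 4 was the lowest for 7 of the 9, and the share of all genes for which it was lowest was not computed. Both old females stood above both old males for 7 genes, Trem2, Tyrobp, Itgax, Gpnmb, Lpl, Cst7 and Spp1, as they did for 15% of all genes tested. In young mice both females stood above both males for 0 of the 9 genes, against 17.7% of all genes. These females stood below both males for Lpl and Spp1, and the share of all genes with that order was not computed. Each library's homeostatic microglia score was the median over the 12 markers of log2 CPM minus the marker's own mean. It was 0.71 in old 4, 0.24 in old 1, 0.17 in old 2 and -0.09 in old 3. It was -0.46 in young 1, -0.02 in young 2, 0.04 in young 3 and -0.44 in young 4. Old 4 had the highest score. Scored in the same way, old 4 was also highest by border macrophage markers (0.96) and by the other early (0.54) and later (0.35) genes of disease-associated microglia. By granule neuron markers old 4 was lowest (-0.34) and young 4 highest (0.41). The part of microglia or other cell content in the order of the libraries was not tested.

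The age difference was larger in females than in males for 7 of the 9 genes, and the difference between the sexes was not called for any. The females include old 4, the highest library for all 9 genes, and young 4, the lowest for 7. The 7 genes are therefore not separate evidence of a sex pattern, and the share of all genes with a larger difference in females was not computed. Spp1 had a log2 fold change of 1.19 ± 0.29 (SE) between 2 old and 2 young females and of -0.35 ± 0.29 between 2 old and 2 young males. Their difference was 1.54 ± 0.41 by edgeR's interaction contrast, with an adjusted p = 0.9999. For Lpl the values were 2.69 ± 0.50 in females and 0.59 ± 0.55 in males, a difference of 2.11 ± 0.79 and the same adjusted p by edgeR. Itgax had 3.92 ± 0.70 in females and 4.31 ± 1.03 in males, and Trem2 had 1.48 ± 0.30 and 0.94 ± 0.33 in the same order. The interaction was called for 0 of all genes by edgeR (326 genes, or 2.3%, had an unadjusted p under 0.05, Spp1 and Lpl among them) and for 0 with the older edgeR dispersions. With sexes compared over both ages, none of the 9 was called, while 0.0423% of all genes were, and Tyrobp had the smallest p of the 9, with a log2 fold change of 1.08 ± 0.31 (female minus male, adjusted p = 0.930 by edgeR).

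**Figure D3:**
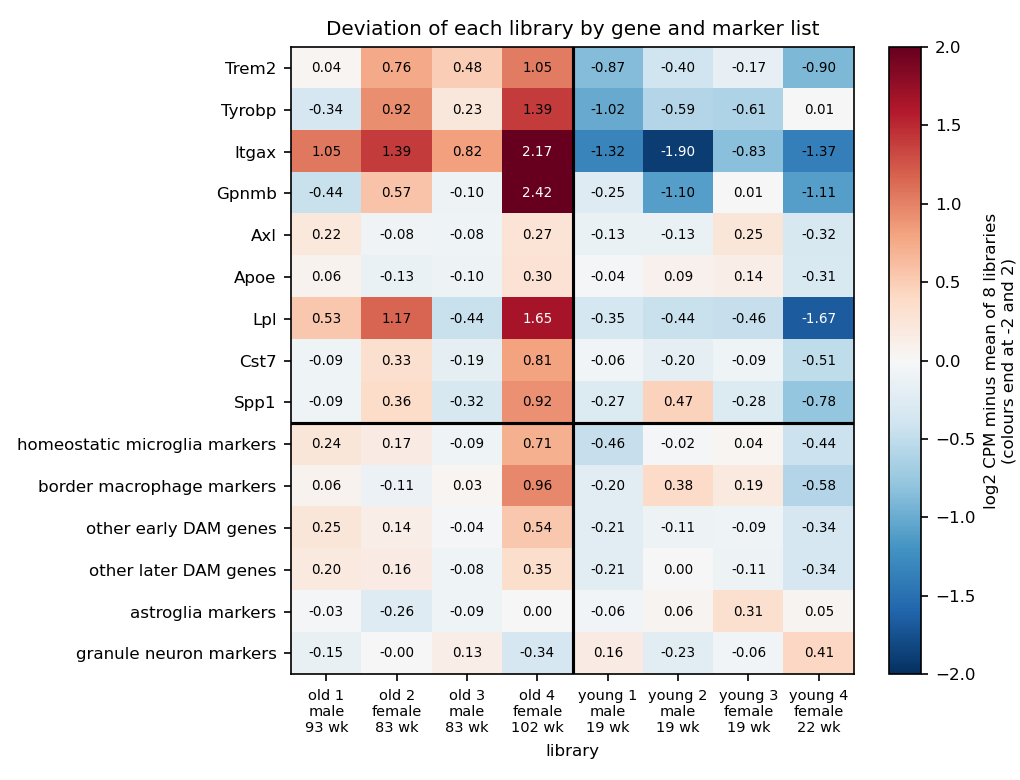
Log2 CPM of each library minus the mean of the 8 libraries, for the 9 genes (upper rows) and as the median over each marker list (lower rows), with old libraries left and young libraries right. Values are printed in the cells, and the column of old 4 is the highest for each of the 9 genes and for the homeostatic microglia markers. It is also the highest for the border macrophage markers and for the other early and later genes of disease-associated microglia, and the lowest for the granule neuron markers.

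The genes were also set against the homeostatic microglia markers of the same library. The log2 level of Trem2 relative to the mean of the 12 markers was -1.07, -0.25, -0.29 and -0.52 in the old libraries, in their order of number. In the young libraries it was -1.27, -1.25, -1.05 and -1.34. Old 1 lay within the young range, just below young 3, and the other 3 old libraries above it. The mean difference, old minus young, was 0.70 for Trem2 (pooled SD 0.28, n = 4 each), 2.24 for Itgax (0.42), 0.99 for Lpl (0.60), 0.75 for Gpnmb (0.83) and 0.63 for Tyrobp (0.57). That of Itgax rests on the prior count, because its young counts were so few. It was 3.28 with a prior count of 0.5 and 1.45 with one of 5, beyond the SD given. The mean difference was -0.04 for Cst7 (0.25) and for Spp1 (0.35), -0.30 for Axl (0.20) and -0.41 for Apoe (0.16). The relative level of Apoe was 5.79 to 6.19 in old and 6.30 to 6.62 in young mice. All 12 markers had positive log2 fold changes and Apoe itself had 0.06, so its relative level falls as the markers rise. The share of all genes with such a gap between the ages was not computed. These values were not tested and show unequal differences only. Apoe and Axl are also made by other cells. With the marker score as a covariate, Itgax was called at a log2 fold change of 3.35 ± 0.67 (SE, adjusted p = 0.0240 by edgeR, with 0.211% of all genes called higher). In that fit Trem2 had 0.91 ± 0.28, Tyrobp 1.09 ± 0.43, Lpl 0.90 ± 0.49, Gpnmb 0.23 ± 0.58 and Cst7 0.07 ± 0.37, none of them called. Spp1, Axl and Apoe had -0.30 ± 0.30, -0.12 ± 0.15 and -0.26 ± 0.10 there, also not called.

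Genes around the pathway showed few calls. Those named with a log2 fold change here and in the next paragraph were called or had the smallest p for age in their list. They are therefore not typical of it. Of 15 tested later genes of disease-associated microglia outside the 10, 13 were positive and 2 negative, with a median of 0.24 against -0.01 over all genes, and 1 was called higher, Cd52, a leukocyte surface antigen, at 2.92 ± 0.42 (SE) on the log2 scale. Ccl6, a chemokine, had 2.64 ± 0.66, Lilrb4a, an inhibitory receptor, had 2.32 ± 0.55 and Cd68, a lysosomal protein of macrophages, had 0.99 ± 0.27, none of them called. Of 6 early genes all were positive with a median of 0.34 and none was called, and Lyz2, a lysozyme of myeloid cells, had a log2 fold change of 2.04 ± 0.36. B2m and Ctsd had log2 fold changes of 0.91 ± 0.17 and 0.63 ± 0.19. All 12 homeostatic microglia markers were positive too, with a median of 0.51 and none called, such as Gpr34 at 0.84 ± 0.24. All 5 tested markers of border macrophages had positive values too (median 0.28, none called), among them Cd163 at 0.46 ± 0.27.

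Of 10 tested signalling partners and relatives of TREM2, 9 were positive, with a median of 0.64 and none called. Pik3cg, a leukocyte phosphoinositide kinase, had 1.11 ± 0.22, and the phosphatases Ptpn6 (SHP-1) and Inpp5d (SHIP1) had 0.99 ± 0.29 and 0.77 ± 0.29. Of 18 ligands and partners of the other members, 11 were positive and 7 negative, with a median of 0.17 and none called. Itgb2, the beta chain that pairs with CD11c, had 0.87 ± 0.32, Pros1, a ligand of the AXL family, had 0.62 ± 0.20 and Ctsc, the protease that cystatin F restrains, had 0.78 ± 0.29. The 11 tested genes of lipid handling around APOE and LPL had 4 positive and 7 negative values, a median of -0.02 and none called. Among them the acid lipase Lipa had 0.60 ± 0.16, the cholesterol exporter Abca1 had 0.31 ± 0.09 and Fabp5 had -0.33 ± 0.17. Apoc1, beside Apoe in the apolipoprotein cluster, had 1 to 6 counts in old and 2 to 7 counts in young libraries and was not tested. All 7 tested transcription factors of microglial activation were positive, with a median of 0.26 and none called, among them Irf8 at 1.03 ± 0.29 and Runx1 at 0.97 ± 0.25.

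**Figure D4:**
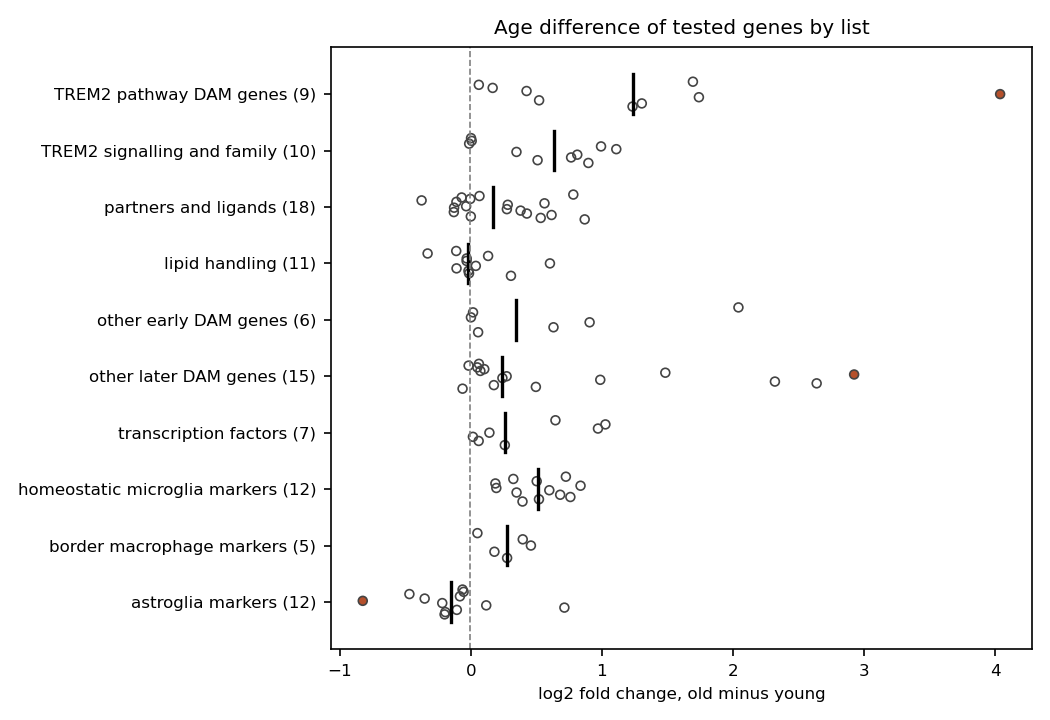
Log2 fold change, old minus young (horizontal axis), of each tested gene in the lists named at the left, with the number tested in brackets; DAM stands for disease-associated microglia. Filled points passed an adjusted p of 0.05 over all genes, bars are list medians and the dashed line is the median of all genes; among the microglial lists Itgax and Cd52 are the filled points.

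Likeness to Trem2 was measured as the root mean square difference between log2 CPM profiles centred on their own means over the 8 libraries, among the 13550 other genes whose log2 CPM averaged 1 or more. The nearest profile was that of Fes, a tyrosine kinase of myeloid cells, at a difference of 0.22. It was followed by Prokr2 and Fxyd5 at 0.23, Irgm2 and Abca8a at 0.26, Gpr34 at 0.27 and Herc6 and Apobec1 at 0.28. C1qb, a subunit of complement C1q made by microglia, and the homeostatic marker Tmem119 were both at 0.29. Of the members, Tyrobp was nearest, in place 152 at 0.42, followed by Cst7 in place 196 at 0.44, while Gpnmb was in place 3894 at 0.66. Itgax was below the level needed for this ranking. None of the 10 nearest genes was called for age by edgeR, with log2 fold changes between 0.76 (Tmem119) and 1.28 (C1qb).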

How the data were processed

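Each library has its own deposited table of counts, which per the file headers and values are whole read numbers by gene, not normalized by the authors. The submitters' processing notes name Trimmomatic 0.39, STAR 2.7.5b, SAMtools 1.10, Picard 2.20.8 and featureCounts, with GRCm38 (mm10) as build. Neither annotation nor strand setting is given in the sources used here. Tables were joined by row, because 24 gene names in 7 of 8 tables had become dates.

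Genes were kept by filterByExpr over the 4 age-by-sex cells (minimum of 10 counts), scaled by TMM and tested for age, with sex as a covariate, by the robust quasi-likelihood test of edgeR 4.0.16 in R 4.3.3. Log2 CPM used a prior count of 2. Log2 fold changes are old minus young, and their SE is their size divided by the root of F. Adjustment over 14191 genes was by Benjamini-Hochberg. DESeq2 1.42.0, limma 3.58.1, other filters, covariates and omitted libraries were alternatives. Coordinates and exon lengths are from GENCODE M21 (GRCm38).

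The 10 genes and the 21 other lists were chosen with earlier results of these data known. Named besides the 10 were list members past the threshold or with the smallest p, marker genes given as values, and the 10 genes most like Trem2.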

Additional observations from a re-analysis of the deposited data

Results flagged for a closer look

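In 18 groups of 4 libraries (9 genes at each age), a library stood far from the other 3 in 2, by Dixon's ratio of gap to range on CPM. About 1 in 20 groups would by chance if values were normal and groups independent. The 9 genes share the same libraries, so the groups were not independent, and the ratio was not computed on log2 CPM. Gpnmb in old mice had 19.4 CPM in old 4 and 2.41 to 5.18 CPM in the others, so that the gap to the next library was 0.837 of the group's range. Lpl in young mice had 0.561 CPM in young 4 (4 counts) and 1.70 to 1.86 CPM in the others, a gap of 0.879 of the range.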

How the results depend on the processing

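Of 21 alternatives for age, 20 could test Trem2, Tyrobp, Itgax, Gpnmb, Lpl and Cst7, whose log2 fold changes were positive in each; the filter of 50 counts in 4 libraries left only Spp1, Axl and Apoe, and so 0 of the members called. Against 17 genes called in all and 1 member, the counts were 125 and 2 with the DESeq2 Wald test, 103 and 2 with age in weeks, 152 and 2 with the granule neuron score, 184 and 2 without old 2, old 3 and young 4, and 132 genes with the homeostatic microglia score. They were 1 and 0 with limma-voom, 0 and 0 with the choroid plexus score, and 26 genes with the older edgeR dispersions. Leaving out 1 library gave 0 (without young 3 or without young 4) to 63 genes (without old 2), and 0 to 1 members. Without old 1 or without young 1 there were 2 genes, without young 2 there were 8, and without old 3 there were 49. The sign reversed for Spp1 (-0.30), Axl (-0.12) and Apoe (-0.26) with the homeostatic microglia score, and for Apoe with the granule neuron score (-0.063), without old 4 (-0.053) and without young 4 (-0.04), where leaving out 1 library gave Apoe -0.053 to 0.13. Relative to homeostatic markers, Itgax differed by 3.28 with a prior count of 0.5 and by 1.45 with one of 5. The causes were not tested.

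With the replicate number as a block, 1 gene and 0 members were called, and Itgax had 4.48 (adjusted p = 0.0865 by edgeR). Deviations of same-numbered libraries from the mean of their age, not adjusted for sex, correlated across genes at 0.17, -0.25, -0.07 and -0.27. Old 1 correlated best with young 2 (0.50). These correlations cannot show whether same-numbered mice shared a batch. Low depth limits Itgax, Tyrobp, Lpl, Gpnmb and Cst7 most, with 4 to 64 counts summed over young libraries.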
